A study of Mus musculus with 8 samples.

Results

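Foxk1 peaks were described at 5 genes of the transforming growth factor beta (TGF-beta) pathway in mouse embryonic fibroblasts: the receptors Tgfbr1, Tgfbr2 and Tgfbr3 and the signal transducers Smad3 and Smad7. A peak was counted for a gene where its summit fell inside a fixed window of the mm9 assembly. The windows ran from 47.30 to 47.45 Mb on chromosome 4 for Tgfbr1, from 115.92 to 116.20 Mb on chromosome 9 for Tgfbr2, from 107.45 to 107.75 Mb on chromosome 5 for Tgfbr3, from 63.45 to 63.65 Mb on chromosome 9 for Smad3 and from 75.48 to 75.60 Mb on chromosome 18 for Smad7. Together they held 60 of the 28933 peaks, or 0.207% of the list, in 1050 kb. The windows are given by coordinates, and the peaks carry no gene names. An annotation of mm9 was not used here, so no peak is placed in a promoter, exon or intron, and a peak in a window may lie in or nearer to another gene. In the RefSeq gene table of GRCm38.p6, each of the 5 genes lay on the same chromosome as its window. The nearest protein-coding genes on either side there are Col15a1 and Alg2 for Tgfbr1, Gadl1 and Rbms3 for Tgfbr2, Cdc7 and Brdt for Tgfbr3, Aagab and Smad6 for Smad3, and Dym and Ctif for Smad7.

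The series holds 8 libraries of chromatin from these fibroblasts, grown in DMEM without treatment: 3 immunoprecipitated with an antibody to Foxk1, 3 with IgG and 2 of input. The labels name no strain, genotype or age, nor whether libraries came from separate cultures. All values here come from 1 deposited list of Foxk1 peaks called against input, in which every peak has a single signal value, of unstated scale, and its q-value. That list holds no value for a single library or for IgG, so no replicate error and no test over samples could be computed, read depth is unknown, and any enrichment that IgG would also give cannot be told apart from that of Foxk1. The fibroblast identity of the cells could not be checked in a list of peaks.

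TGF-beta is a secreted growth factor that drives fibroblasts to make matrix and to contract. The ligand is gathered by the co-receptor Tgfbr3, also called betaglycan, and bound by the type II receptor Tgfbr2, a kinase that phosphorylates the type I receptor kinase Tgfbr1. Tgfbr1 then phosphorylates Smad3, which enters the nucleus with a common partner Smad and regulates transcription, whereas Smad7, induced by the same pathway, blocks the receptors as feedback. Foxk1 is a forkhead transcription factor, a family whose core recognition sequence is TGTTTAC on one strand, read as GTAAACA on the other.

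Sequence at the start of the genes was read from the RefSeq promoter table, which covers 250 bases before to 50 bases after a start site on GRCm38.p6, an assembly other than that of the peaks. By symbol, 3 of the 5 genes matched. No peak could be set against these sequences, and they are shown for the receptor pair with few peaks and for Smad3, which had more. They lie at chr4:47352972-47353271 on the plus strand for Tgfbr1, at chr9:116175314-116175613 on the minus strand for Tgfbr2 and at chr9:63757945-63758244 on the minus strand for Smad3. Capitals mark GTTTAC, a shorter forkhead core, and also the short Smad box CAGAC, each searched on both strands. Both of these were added after the promoters had been seen.
Tgfbr1: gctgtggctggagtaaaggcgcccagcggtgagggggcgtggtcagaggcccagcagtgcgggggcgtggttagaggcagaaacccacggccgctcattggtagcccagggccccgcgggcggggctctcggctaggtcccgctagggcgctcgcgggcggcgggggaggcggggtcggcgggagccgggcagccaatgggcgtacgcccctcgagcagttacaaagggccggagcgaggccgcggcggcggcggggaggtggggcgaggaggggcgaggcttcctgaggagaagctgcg
Tgfbr2: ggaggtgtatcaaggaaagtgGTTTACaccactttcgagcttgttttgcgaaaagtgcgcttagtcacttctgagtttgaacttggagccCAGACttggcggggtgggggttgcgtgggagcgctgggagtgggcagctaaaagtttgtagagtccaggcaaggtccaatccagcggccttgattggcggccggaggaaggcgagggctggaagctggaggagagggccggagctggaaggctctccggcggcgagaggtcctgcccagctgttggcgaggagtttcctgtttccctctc
Smad3: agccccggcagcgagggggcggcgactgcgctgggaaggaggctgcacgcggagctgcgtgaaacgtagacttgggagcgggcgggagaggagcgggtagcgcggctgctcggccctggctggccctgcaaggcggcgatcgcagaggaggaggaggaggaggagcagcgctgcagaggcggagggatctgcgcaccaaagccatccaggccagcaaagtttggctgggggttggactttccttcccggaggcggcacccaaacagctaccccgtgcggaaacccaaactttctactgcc
The Tgfbr2 promoter held GTTTAC at bases 22 to 27 and CAGAC at bases 91 to 95, counted from 1 at the 5′ end. The Tgfbr1 and Smad3 promoters held neither. On both strands, 7.89% of all 32851 promoters in the table held GTTTAC and 49.6% held CAGAC. None of these 3 promoters held the forkhead letters TGTTTAC, which 3.65% of all promoters in the table hold on either strand. None held the shorter form TGTTTA, which 13.4% hold, nor the Smad element GTCTAG, which 8.37% hold. Both of the shorter forkhead forms lie within the longer one, so that their matches overlap. A second Tgfbr1 promoter in the table held CAGAC once and none of the other motifs. The share of G and C was 74.7% for the first Tgfbr1 promoter, 59.0% for Tgfbr2 and 67.7% for Smad3. A match to such short letters is a description and not a binding site.

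The first comparison asked how many Foxk1 peaks each gene window carried. Tgfbr3, Smad7 and Smad3 had many and the kinase receptors Tgfbr1 and Tgfbr2 few. Peaks numbered 32 in the 300 kb of Tgfbr3, 13 in the 120 kb of Smad7 and 11 in the 200 kb of Smad3, but 2 in the 150 kb of Tgfbr1 and 2 in the 280 kb of Tgfbr2. Per 100 kb this was 10.7 peaks for Tgfbr3 (95% exact Poisson interval 7.30 to 15.1), 10.8 for Smad7 (5.77 to 18.5), 5.5 for Smad3 (2.75 to 9.84), 1.33 for Tgfbr1 (0.161 to 4.82) and 0.714 for Tgfbr2 (0.0865 to 2.58). The whole list averaged 1.10 per 100 kb. The intervals of the Tgfbr3 and Smad7 windows lay above those of the Tgfbr1 and Tgfbr2 windows, while those of Smad3 and Tgfbr1 overlapped. Tgfbr3 and Smad7 could not be ordered. These intervals cover counting error only and are too narrow, because peaks gather in clusters.

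**Figure D1:**
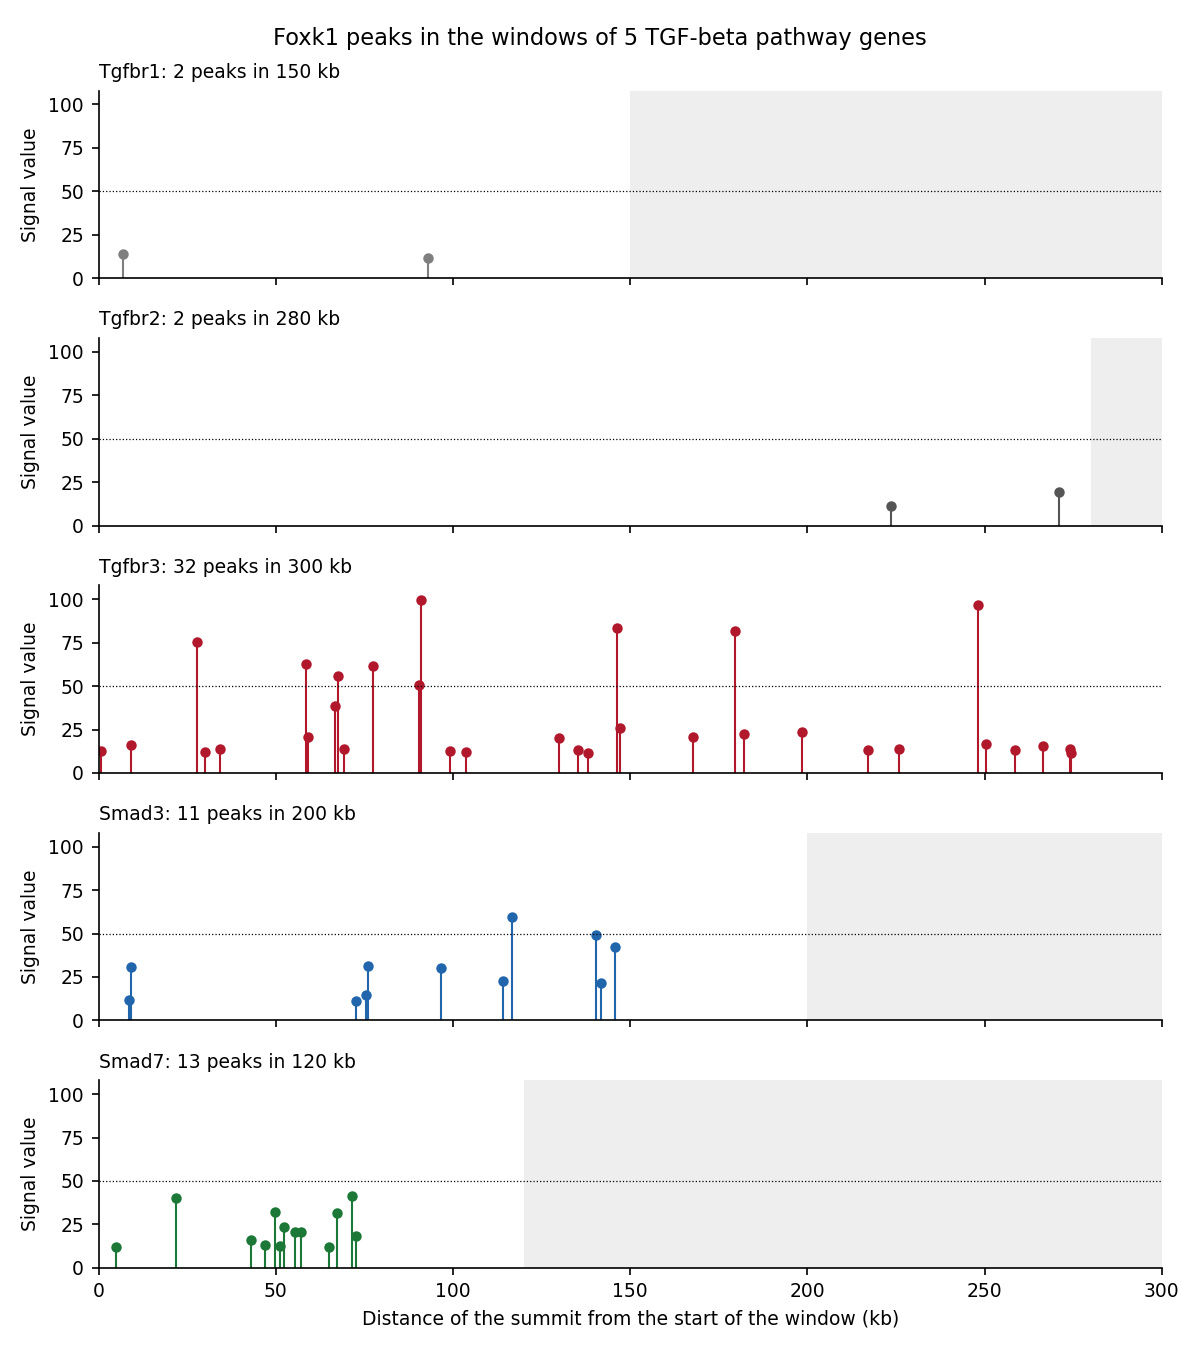
Signal value of every Foxk1 peak (vertical axis, 1 point per peak) against the distance of its summit from the start of the gene window (horizontal axis, kb); grey areas lie beyond the end of a window and the dotted line marks a signal value of 50. The Tgfbr3 window holds 32 peaks, 9 of them at or above the line, whereas the Tgfbr1 and Tgfbr2 windows hold 2 low peaks each.

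Each window was set beside all full windows of its own length, laid in fixed steps along chromosomes 1 to 19 and X. At least 32 peaks were found in 1 of 8775 windows of 300 kb, or 0.0114%, which was the window on chromosome 19 from 5700001 to 6000000. At least 13 peaks were found in 0.260% of the 21948 windows of 120 kb and at least 11 peaks in 2.47% of the 13165 windows of 200 kb. The Tgfbr3, Smad7 and Smad3 windows thus lay in the upper tail of their distributions. By contrast, 2 or more peaks were found in 35.4% of windows of 150 kb, the length used for Tgfbr1, and 2 or fewer in 59.0% of windows of 280 kb, the length used for Tgfbr2. The peak numbers of Tgfbr1 and Tgfbr2 were therefore ordinary ones for stretches of their length, where the median was 1 peak in 150 kb and 2 peaks in 280 kb. The gene windows were placed on known genes with the peaks already examined and the fixed windows were not. The fixed windows also include stretches to which reads cannot be assigned.

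**Figure D2:**
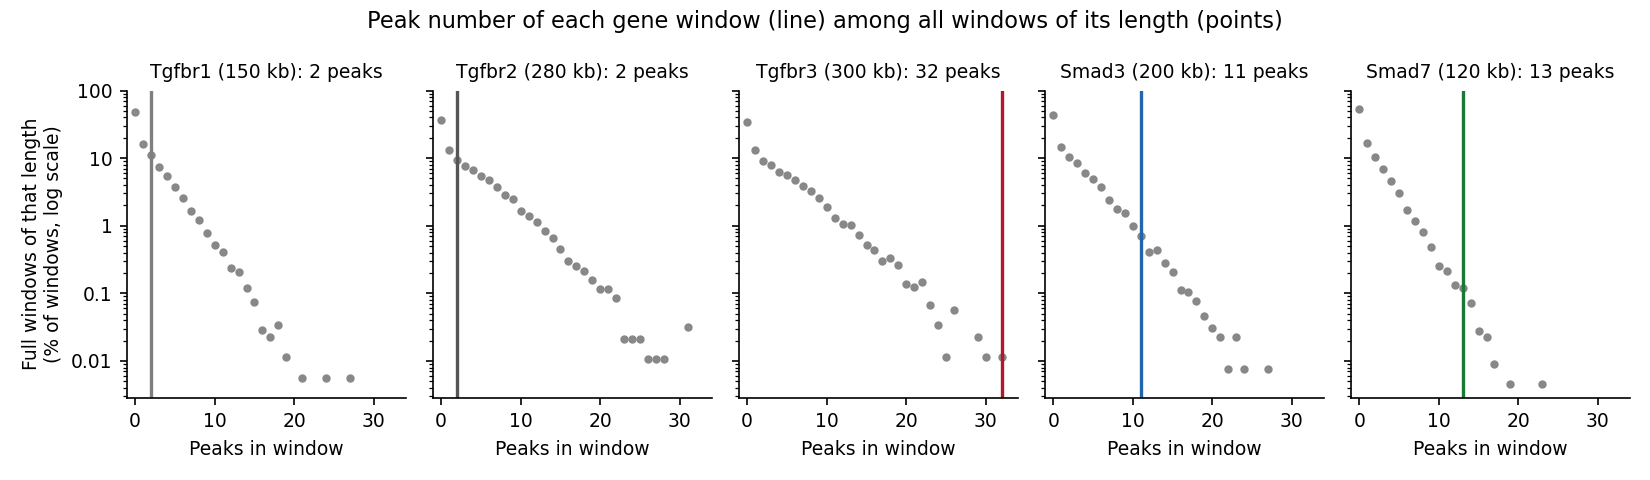
Share of all full windows of a given length (vertical axis, percent, log scale) by the number of Foxk1 peaks in them (horizontal axis), as grey points, with 1 panel per gene at the length of its window. The coloured line marks the gene window. The 32 peaks of Tgfbr3 and the 13 of Smad7 fall far to the right. The 11 peaks of Smad3 lie in the upper tail, reached by 2.47% of windows of its length. The 2 peaks of Tgfbr1 and of Tgfbr2 fall among the commonest values.

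The contrast was also present within 1 chromosome. Smad3 and Tgfbr2 share chromosome 9, which averaged 0.856 peaks per 100 kb, and the Smad3 window had 6.43 times that average while the Tgfbr2 window had 0.834 times. The Tgfbr3 window had 8.36 times the average of chromosome 5 (1.28 per 100 kb), the Smad7 window 8.84 times that of chromosome 18 (1.23) and the Tgfbr1 window 1.57 times that of chromosome 4 (0.847). No fixed window of 300 kb among the 508 on chromosome 5 reached 32 peaks. On chromosome 9, 10 of 620 windows of 200 kb reached the 11 peaks of Smad3. On chromosome 18, 2 of 753 windows of 120 kb reached 13. The Smad7 window coincides with a fixed window and is 1 of these 2, and the Tgfbr2 window likewise coincides with a fixed window.

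In the 3 dense loci the peaks also stood apart from the sequence on either side. Stretches of the same length directly next to the Tgfbr3 window held 4 peaks at lower and 4 at higher coordinates, against 32 inside it. The Smad7 window held 13 peaks, and its neighbouring stretches 1 and 2. The Smad3 window held 11 and its neighbouring stretches 1 and 4. For Tgfbr1 the 2 peaks inside compared with 2 and 1 outside, and for Tgfbr2 the 2 inside with 0 and 5. Of the peaks in the 1 Mb centred on each window, the Tgfbr3 window thus held 32 of 41, the Smad7 window 13 of 20 and the Smad3 window 11 of 20. As the windows were chosen with results of these data known, this drop at the edges is a description.

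**Figure D3:**
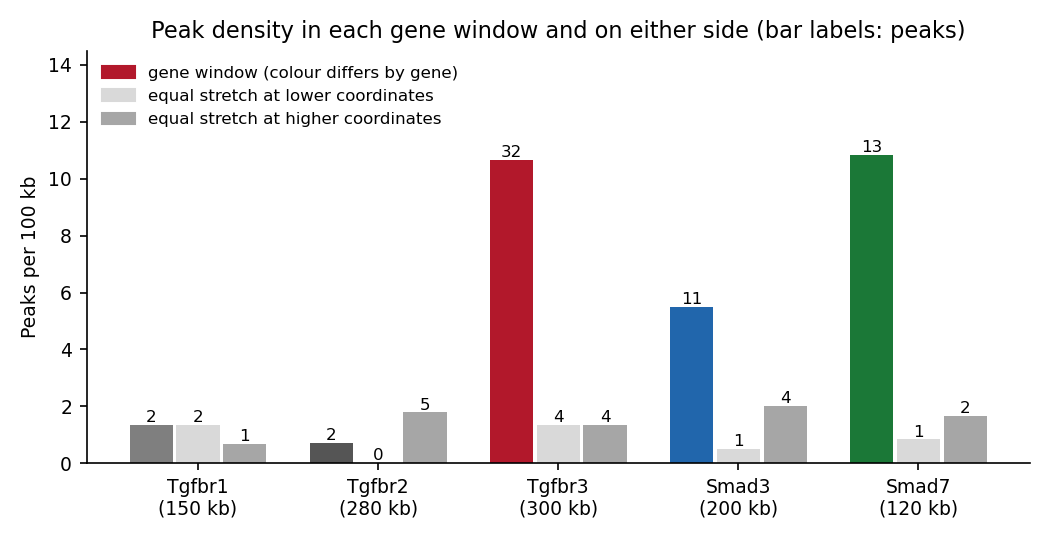
Foxk1 peaks per 100 kb (vertical axis) in each gene window (coloured bars) and in stretches of equal length directly at lower (light grey) and higher (dark grey) coordinates, with the number of peaks above each bar. The Tgfbr3, Smad3 and Smad7 bars stand above both of their neighbours, which the Tgfbr1 and Tgfbr2 bars do not.

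The window of the type I receptor gene Tgfbr1 had a peak of signal value 14.0 on chromosome 4 from 47306697 to 47307156. It had another of signal value 11.4 from 47392829 to 47393288. The window of the type II receptor gene Tgfbr2 had a peak of signal value 19.3 on chromosome 9 from 116190705 to 116191164. It had another of signal value 11.4 from 116143336 to 116143795. The lowest signal value of the whole list was 11.3 and its median 17.8, and 3 of these 4 peaks lay below that median. In rank by signal value over the list, the higher Tgfbr2 peak was number 12781 and the higher Tgfbr1 peak number 20537. The higher Tgfbr2 peak had a q-value of 0.000743, and the other 3 had q-values between 0.00217 and 0.00953.

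The first 224 kb of the Tgfbr2 window contained no summit. They were the end of a stretch of 1.29 Mb without peaks, between summits at 114857624 and 116143566 on chromosome 9. Of 28912 distances between neighbouring summits in the list, 218 or 0.754% were at least as long. On chromosome 9 this stretch was the 9th longest of 1061. The 0.754% is a share of distances and not of sequence, of which long distances cover more. Among fixed windows of 280 kb, 59.0% held 2 or fewer peaks. The median distance in the list was 24.8 kb. In the Tgfbr1 window the 2 summits were 86.1 kb apart. Few peaks in a window means few above the authors' threshold at an unknown depth, not absence of Foxk1.

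The window of the co-receptor gene Tgfbr3 carried the strongest peaks of the 5 windows. Signal values ran from 11.3 to 99.6 with a median of 18.4, and 9 of its 32 peaks, or 28.1%, had a signal value of at least 50, against 7.97% of the whole list. At the median of the list or above were 16 of 32. The typical Tgfbr3 peak was thus close to the typical peak of the list, and the difference lay in its upper part: the 75th percentile was 51.8 at Tgfbr3 and 27.6 in the list. The same 9 peaks had the lowest q-value of the list (0.00014), which 12.3% of all peaks had. A count of 9 such high peaks was reached by 1 of the 8775 fixed windows of 300 kb. That window overlapped the Tgfbr3 window, running from 107400001 to 107700000.

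The highest Tgfbr3 peak, of signal value 99.6, lay on chromosome 5 from 107540814 to 107541273 and ranked 430 in the list and 36 on its chromosome. The next were those of signal value 96.9 from 107697859 to 107698318 and of 83.2 from 107596031 to 107596490. These 3 peaks were spread over the locus, at 91.0, 248.1 and 146.3 kb from the start of the window. With the window divided into 5 equal stretches of 60 kb, peaks numbered 7, 8, 7, 4 and 6 in order of coordinate, and those of at least 50 numbered 2, 4, 2, 0 and 1. The Tgfbr3 peaks were therefore not 1 compact cluster. Its fullest 20 kb, with summits from 107508408 to 107527322, held 6 peaks, 3 of them at least 50, and its fullest 100 kb held 15. In the list, 1.16% of peaks had 6 or more summits in the 20 kb that start at their own summit. For 15 or more in the following 100 kb the share was 0.394%. These shares, and those given below for Smad3 and Smad7, count every peak of the list, the peaks of the windows included. The stretches were picked as the fullest of their windows, so the shares do not give how often a window holds one. The longest stretch without a summit inside the window was 26.3 kb, between 107553706 and 107580013, with signal values of 12.3 and 20.2 at its borders.

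**Figure D4:**
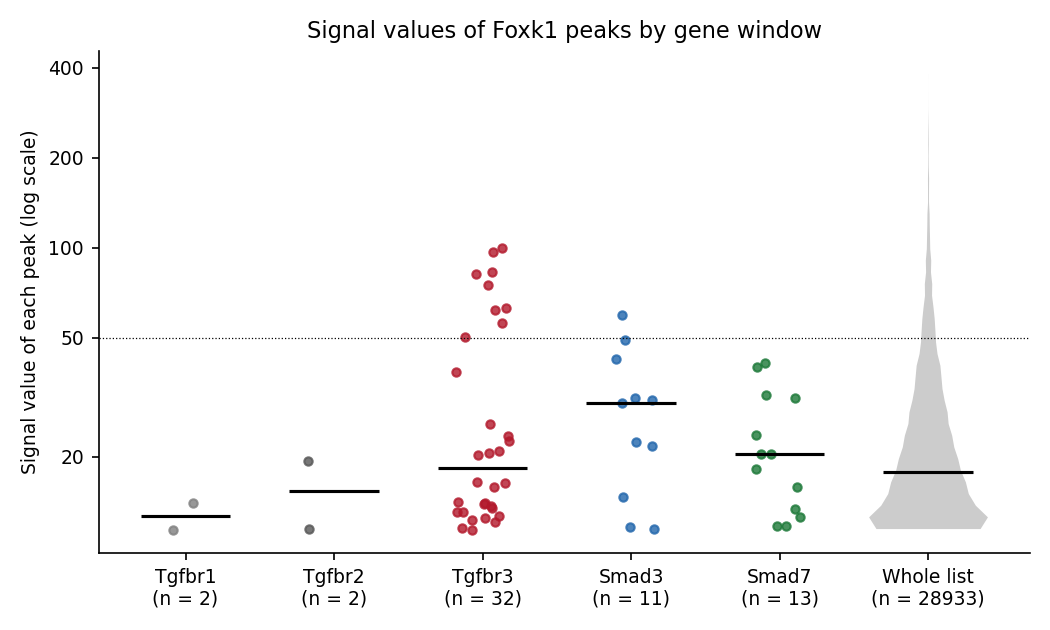
Signal value of each Foxk1 peak (vertical axis, log scale) by gene window, 1 point per peak with random sideways spread, and the distribution of the whole list as a grey shape whose width follows the number of peaks; black bars are medians and the dotted line is a signal value of 50. The Tgfbr3 points reach 99.6 with a median of 18.4, the Smad3 median is 30.2, and the Smad7 points end at 41.2.

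Smad3, the receptor-activated transducer, had fewer peaks than Tgfbr3, and its median over all listed peaks was the highest of the 5 windows. The medians of Tgfbr3 (18.4) and Smad7 (20.4) lay between the lower and upper quartiles of Smad3 (18.2 and 36.9). From 11 peaks at Smad3, the order of these medians could not be settled. Among peaks with a q-value of at most 0.001 the Tgfbr3 median was higher, at 53.1 against 31.2 at Smad3. The 11 Smad3 signal values ran from 11.4 to 59.6 with a median of 30.2, against 17.8 in the whole list. At or above the median of the list were 8 of 11, against 14467 of all 28933 peaks. The 11 peaks are too few to tell these shares apart. Only 1 of the 11 was at least 50, the peak of signal value 59.6 on chromosome 9 from 63566523 to 63566982. It was followed by peaks of 49.2 from 63590087 to 63590546 and of 42.4 from 63595447 to 63595906. All 3 had the lowest q-value of the list. They lay within 28.9 kb of each other, between 116.8 and 145.7 kb from the start of the window. The fullest 100 kb of the window held 9 of its 11 peaks, a number reached in the following 100 kb by 6.31% of all peaks. A stretch of 63.7 kb between summits at 63459045 and 63522743, with signal values of 31.0 and 11.4, held none, and the last 54.3 kb of the window held none either.

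The window of Smad7, the inhibitory Smad, had 7 of its 13 peaks in a stretch of under 20 kb and none with a signal value of 50 or more. Its 13 signal values ran from 11.7 to 41.2 with a median of 20.4. The count of 0 of 13 at 50 or more is close to the 7.97% of the whole list. At or above the median of the list were 8 of 13. The highest peaks, all on chromosome 18, were those of signal value 41.2 from 75551329 to 75551788, of 40.0 from 75501649 to 75502108 and of 32.3 from 75529408 to 75529867. The first of them alone had the lowest q-value. With the window divided into 5 equal stretches of 24 kb, the middle one held 8 of the 13 peaks. Its fullest 20 kb, from the summit at 75523012 to that at 75537227, held 7 peaks. That number was reached in the following 20 kb by 0.449% of all peaks. All 13 lay within 100 kb, and 1.08% of all peaks had 13 or more summits in the 100 kb that start at their own. The longest stretch without a summit was 21.1 kb, from 75501879 with a signal value of 40.0 to 75523012 with 15.9, and the last 47.3 kb of the window held none.

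A further comparison asked how often peaks of the 5 windows came in close pairs. Another summit lay within 2000 bp of 11 of 32 peaks (34.4%) at Tgfbr3, of 6 of 11 (54.5%) at Smad3, of 7 of 13 (53.8%) at Smad7 and of none of the 4 at Tgfbr1 and Tgfbr2. In the whole list the share was 25.8%. The list averaged 1.10 peaks per 100 kb, against 10.7 at Tgfbr3, 5.5 at Smad3 and 10.8 at Smad7. A close neighbour is more frequent where peaks are denser, and no stretches of equal density were compared. Pairing was therefore not separated from the number of peaks. Within 1000 bp the share was 31.2% at Tgfbr3, 36.4% at Smad3 and 0 at Smad7, against 16.3% in the whole list. The Smad7 pairs were thus all wider, but the closest, at 1026 bp, lay just beyond this limit. At 2000 bp and over all 5 genes the share was 24 of 60, or 40.0%. These peaks formed 13 pairs of neighbours, 6 at Tgfbr3, 3 at Smad3 and 4 at Smad7. The closest summits were 448 bp apart at Tgfbr3 (107724062 and 107724510, signal values 13.9 and 11.3), where the 460 bp peaks overlapped. They were 499 bp apart at Smad3 (63458546 and 63459045, signal values 11.6 and 31.0) and 1026 bp at Smad7 (75531167 and 75532193, signal values 12.6 and 23.6).

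The signal values of paired peaks differed by varying amounts. At Tgfbr3 the highest peak of the locus stood 597 bp from one with a signal value of 50.4, the only pair of the 13 with both values at least 50. The peak with 83.2 stood 848 bp from one with 25.7, which was the widest difference at Tgfbr3 (57.5). The overlapping pair had the narrowest (2.52). At Smad3 the differences in signal value ran from 16.7 to 27.5 in its 3 pairs. At Smad7 they ran from 0.121, for summits 1828 bp apart with 20.5 and 20.4, to 23.0. The signal value has no stated scale, so these differences are not folds, and no such values were set beside them for the whole list. Of the 9 Tgfbr3 peaks of at least 50, 5 had another summit within 2000 bp, and in the whole list this held for 702 of 2305 such peaks (30.5%). The single such peak at Smad3 had none. The greater density of peaks in these windows was not taken into account here either. How far a close pair shares reads could not be judged from the list.

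The signal values of the peaks nearest to the window edges can be read beside the list median of 17.8. At Tgfbr1 and Tgfbr2 the peaks inside the edges are the only 2 of each window. Just inside the edges, signal values were 12.7 and 11.3 at Tgfbr3, 11.6 and 42.4 at Smad3, 11.8 and 18.2 at Smad7, 11.4 and 19.3 at Tgfbr2 and 14.0 and 11.4 at Tgfbr1, at lower and higher coordinates in that order. The nearest peaks outside had 15.1 and 12.0 at Tgfbr3, 13.9 and 16.0 at Smad3, 31.5 and 14.0 at Smad7 and 12.3 and 16.0 at Tgfbr1, at most 68.2 kb from an edge. At Tgfbr2 the nearest peak at higher coordinates had 15.2, and the one at lower coordinates, with 26.3, was 1062 kb away at the far end of the stretch without peaks. Near the edges, values above 25 were those of the last Smad3 peak and of the first peak below the Smad7 window. The nearest peak outside the Smad7 window was 15.3 kb from its edge.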

How the data were processed

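Foxk1, IgG and input libraries were grouped by the antibody label and, for input, by title. Bowtie and mm9 are named in the submitters' processing notes. The peaks were called on Foxk1 against input, per the file's track line. Neither the caller, its settings nor any pooling of libraries is stated there or in the labels. In the authors' table every peak has a signal value (a score of unstated scale) and a q-value on a linear scale. The summit is the peak start plus the offset, which is the middle of every 460 bp peak; coordinates are printed 1-based.

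Summits were counted in the 5 windows and in all full, non-overlapping windows of equal length, with the highest peak end as chromosome length. A signal limit of 50, a neighbour distance of 2000 bp and exact Poisson intervals were used. With 1 list and no replicates no test was made. The genes, windows and limits were chosen with earlier results of these data known. Peaks named by coordinates are the 3 highest of each window, the closest pair, and those bordering the longest stretch without a summit; others are named where the text singles them out after their values were seen. Other genes of the pathway and motifs in peaks were planned, but need an mm9 annotation or genome and were not analysed. Counting was tested on simulated peaks. Python 3.11.15, numpy 2.4.6, scipy 1.17.1, pandas 2.3.3 and matplotlib 3.10.9 were used.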

Additional observations from a re-analysis of the deposited data

How the results depend on the processing

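Keeping only peaks with at least the list's median signal, or only peaks with a q-value of at most 0.001 gave the same densities per 100 kb: 6.67 at Smad7, 5.33 at Tgfbr3, 4 at Smad3, 0.357 at Tgfbr2 and 0 at Tgfbr1. Smad3 alone stayed within 1.5 times its density under these limits. Moving the window edges by 25 kb changed the Tgfbr2 density to 0.435 when narrowed and 1.21 when widened. In all, 20 of 30 densities stayed within 1.5 times their value, merging of summits closer than 2000 bp and counting by overlap included. Tgfbr3, Smad3 and Smad7 stayed denser than Tgfbr1 and Tgfbr2 under every alternative run, but Tgfbr3 and Smad7 changed order. The order of Tgfbr1 and Tgfbr2 also changed with the limits and with wider windows. The Tgfbr3 median signal rose to 53.1 among peaks with a q-value of at most 0.001, which drops its low peaks, and no Tgfbr1 peak was left there. The other 28 of 29 medians stayed within the order-statistic interval of the median, or within the range of the 2 values at Tgfbr1 and Tgfbr2. With a neighbour distance of 5000 bp, 68.8% of peaks at Tgfbr3 had a close neighbour, 90.9% at Smad3 and 84.6% at Smad7. In the whole list this share was 39.6%. With 1000 bp it was 0 at Smad7, where the closest summits were 1026 bp apart, against 16.3% in the whole list. Peaks are sparser in the whole list than in these windows, which was not taken into account. Shifting the fixed windows by 0.5 of their length, an alternative chosen after seeing the data, left 0.0114% with as many peaks as Tgfbr3 and 0.205% with as many as Smad7. No paired analysis was possible because the list holds no value per replicate, and no replicate could be left out. Depth is unknown and limits what a low count means.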
